A study of Rattus norvegicus with 4 samples.

Results

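The circadian clock genes and Noct were examined in neonatal rat cardiomyocytes that overexpressed atrogin-1. They are 10 genes, Noct, Per1, Per2, Per3, Cry1, Clock, Bmal1, Nr1d1, Nr1d2 and Dbp, taken by name from the symbols paired with the array's probe sets. They have 17 probe sets among the 20826 that are paired with 1 gene, and they are 10 of 14217 genes tested. Heart muscle cells from the ventricles of Sprague-Dawley rats aged 1 to 2 days were plated in medium with serum. They were then infected with an adenovirus carrying atrogin-1 and GFP (Ad-atrogin-1, 2 arrays) or with one carrying GFP alone (Ad-GFP, 2 arrays), and kept in serum-free medium for 24 hours. Both groups therefore carried an adenovirus and GFP, and the promoter that drives atrogin-1 is not given in the sources used here. All 4 arrays were taken at 1 time after infection, so the phase and the amplitude of a rhythm were not measured.

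The molecular clock is a feedback loop of transcription that most mammalian cells run for themselves, heart muscle cells included. The proteins CLOCK and BMAL1 pair on E-box elements and activate the Period and Cryptochrome genes, whose products return to the nucleus and shut CLOCK and BMAL1 down. A second loop runs through the nuclear receptors REV-ERB alpha and beta (Nr1d1 and Nr1d2), which are switched on through E-boxes and repress Bmal1. The transcription factor gene Dbp is a direct output of the loop. Noct encodes nocturnin, an enzyme first described as a rhythmic deadenylase and later shown to remove a phosphate from NADP(H). Its RNA is rhythmic in many tissues, but nocturnin is not a part of the loop, and its gene also responds to acute stimuli such as serum.

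Of the 10 genes, Noct fell in Ad-atrogin-1 cardiomyocytes, and none of the 9 genes of the clock itself passed the test. Noct was 2.19-fold lower, and the 9 clock genes had a median log2 fold change of 0.0021. A gene is said to have risen or fallen when its adjusted p in limma was under 0.05 and its change at least 2-fold, the thresholds of the study's methods. By this rule 1 of the 10 genes was called, against 0.513% of all genes tested (65 higher, 0.457%, and 8 lower, 0.0563%). The 10 genes were chosen with earlier results of these data known, so the 2 shares cannot be read as a test. After a further quantile normalization the split of all genes called was 74 higher and 20 lower. For 8 of the 10 genes the 95% interval of the change lay wholly within 2-fold in either direction, as it did for 92.6% of all genes. The exceptions were Noct and Dbp.

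The windows around the transcription starts of the members were searched for the elements through which the loop is known to work. The reference table of RefSeq promoters (build GRCr8) had a window for 9 of the 10 genes, 11 windows in all, each reaching from 250 bases before the start to 50 after it. Both strands were searched for the E-box CACGTG, the D-box TTATGTAA or TTACGTAA, the core AGGTCA of sites for REV-ERB and ROR receptors, the cyclic AMP element TGACGTCA and the E-box variant CACGTT, which was added after the windows had been seen. None of these motifs overlapped another in the windows shown. The 250 bases before the start are printed 5′ to 3′ on the gene's strand for Noct, the gene that fell, and for a target of each arm of the loop, with matches in capitals.
Noct (chr2:137421824-137422073, plus strand): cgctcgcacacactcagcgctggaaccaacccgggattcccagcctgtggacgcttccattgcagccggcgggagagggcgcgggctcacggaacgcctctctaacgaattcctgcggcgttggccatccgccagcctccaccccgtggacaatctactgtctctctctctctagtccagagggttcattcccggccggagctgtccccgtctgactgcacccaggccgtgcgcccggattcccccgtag
Bmal1 (chr1:176766078-176766327, plus strand): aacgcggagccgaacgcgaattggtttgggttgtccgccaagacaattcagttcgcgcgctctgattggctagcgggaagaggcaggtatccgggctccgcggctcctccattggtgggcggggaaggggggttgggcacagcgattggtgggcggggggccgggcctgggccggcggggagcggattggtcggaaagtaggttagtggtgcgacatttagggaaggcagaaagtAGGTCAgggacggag
Per2 (chr9:99496994-99497243, minus strand): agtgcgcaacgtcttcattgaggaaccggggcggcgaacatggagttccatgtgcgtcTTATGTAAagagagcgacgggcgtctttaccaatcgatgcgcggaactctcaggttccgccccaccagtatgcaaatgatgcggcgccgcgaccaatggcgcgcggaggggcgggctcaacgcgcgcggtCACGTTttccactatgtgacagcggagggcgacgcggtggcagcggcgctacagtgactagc
Nr1d1 (chr10:84229455-84229704, minus strand): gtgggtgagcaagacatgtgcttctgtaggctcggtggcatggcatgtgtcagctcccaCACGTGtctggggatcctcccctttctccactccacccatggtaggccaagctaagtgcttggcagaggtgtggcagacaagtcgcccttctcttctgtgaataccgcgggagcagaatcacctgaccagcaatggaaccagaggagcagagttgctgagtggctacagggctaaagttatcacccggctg

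The Bmal1 window held the core AGGTCA beginning 15 bases before the start, and such a match was present in 16.2% of the 33469 rat promoter windows. The Per2 window held a D-box 192 bases before the start and the E-box variant at 62 bases before it, motifs found in 1.01% and 4.83% of all windows. The Nr1d1 window shown belongs to the downstream of its 2 starts and held the E-box CACGTG at 191 bases before that start. It was picked for printing because it held this E-box, so its match was fixed by the choice. The window of the upstream start held no CACGTG, which was present in 6.42% of all windows. The starts used lie downstream of the 5′ end of the annotated gene by 76 bases for Per2 and 106 bases for Bmal1, so the Per2 variant and the Bmal1 AGGTCA, like the Nr1d1 E-box, lie inside the annotated genes. The upstream Nr1d1 start had a match to the variant, Nr1d2 had an AGGTCA, and no window of Noct, Per1, Per3, Clock or Dbp held any of the motifs searched. A cyclic AMP element (1.83% of all windows) was found in none of the members' windows. A match describes letters in the reference and not a site in use, and a window without a match says nothing of the factors outside it.

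Noct was the one member to pass the test. Its log2 signals were 7.16 and 7.16 on the Ad-atrogin-1 arrays, against 8.28 and 8.30 on the Ad-GFP arrays. The arrays of each group lay almost on top of each other, and the groups were far apart. The means were 7.16 ± 0.0023 in Ad-atrogin-1 and 8.29 ± 0.017 in Ad-GFP cardiomyocytes (SD, n = 2 each). The log2 fold change was -1.13 (standard error 0.11, 95% interval -1.41 to -0.85, adjusted p = 0.0306, limma over all genes). Over all 31042 probe sets the adjusted p was 0.0373, with 0.274% of probe sets called and 0.0258% called lower. Noct has 1 probe set on the array, so no other probe set measured it. Noct had the smallest decrease of the 8 genes called lower. By size alone 55 genes were lower by 2-fold or more, and 39 of them lay further down than Noct. The methods' t-test called none of the 14217 genes, Noct included (adjusted p = 0.291), although 1339 had an unadjusted p under 0.05. With any 1 of the 4 arrays left out Noct did not pass in limma, at an adjusted p of 0.386 to 0.449 and a log2 fold change of -1.14 to -1.12. Such a fit has 1 group of a single array, assumed to vary like the other group, and called at most 1 gene, although 1263 to 1521 genes had an unadjusted p under 0.05. RNA of the whole culture was measured, so fewer cells of a type and less RNA per cell cannot be told apart.

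**Figure D1:**
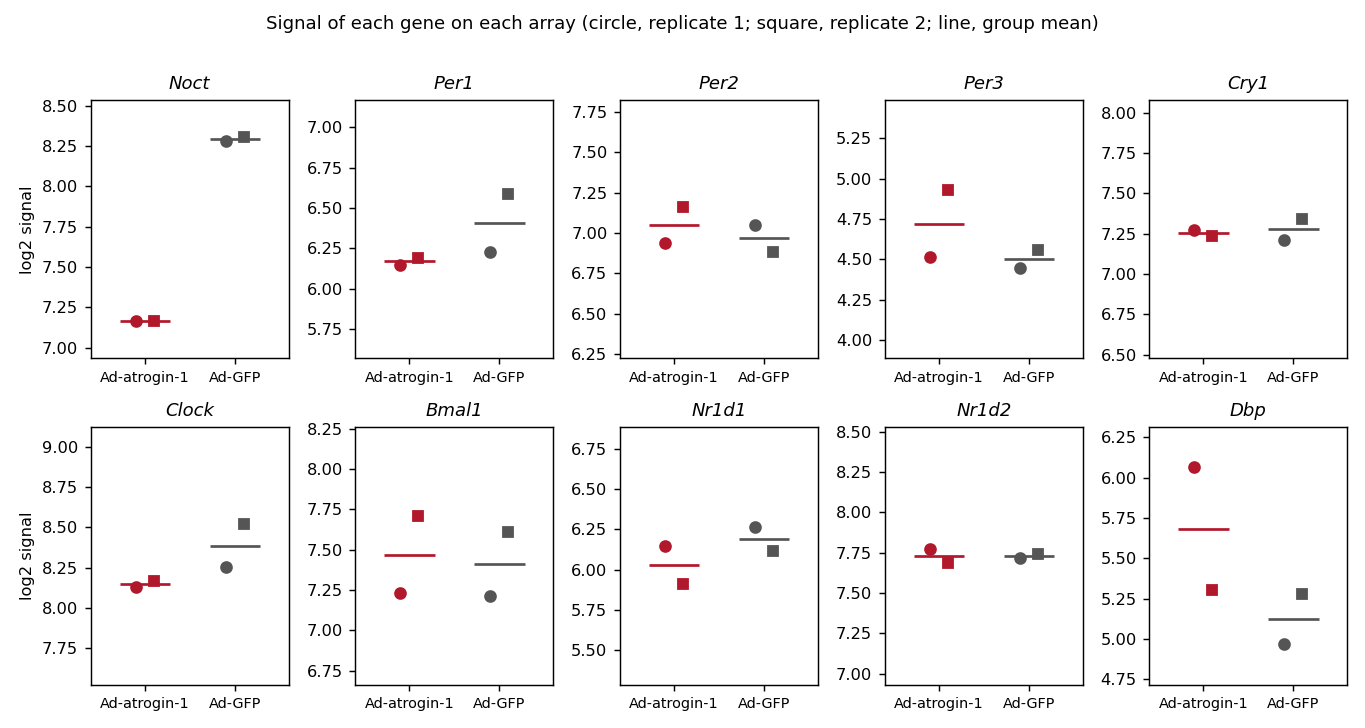
Log2 signal of each of the 10 genes (vertical axis, each panel spanning 1.6 log2 units) on the Ad-atrogin-1 (red) and Ad-GFP (grey) arrays; circles are replicate 1, squares replicate 2 and lines the group means (n = 2). The groups are far apart for Noct, while for the other genes the distance between the group means is smaller than the distance between the 2 arrays of the more variable group.

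The Period genes, the repressors that define the negative arm of the loop, did not pass the test. Per1, which responds quickly to hormones and cyclic AMP, had log2 signals of 6.15 and 6.19 in Ad-atrogin-1, against 6.23 and 6.59 in Ad-GFP cardiomyocytes. The groups did not overlap, but the gap between the nearest arrays was smaller than the spread in Ad-GFP. The Per1 log2 fold change was -0.24 (standard error 0.16, 95% interval -0.62 to 0.15, adjusted p = 0.579, limma). Without Ad-GFP replicate 2 it was -0.06, and without Ad-GFP replicate 1 it was -0.42.

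Per2 had log2 signals of 6.94 and 7.16 in Ad-atrogin-1, against 7.05 and 6.89 in Ad-GFP cardiomyocytes, at the brighter of its 2 probe sets. The groups overlapped, with a log2 fold change of 0.08 (95% interval -0.26 to 0.43). The dimmer Per2 probe set read 5.97 and 6.28 in Ad-atrogin-1, against 6.02 and 5.20 in Ad-GFP. Its log2 fold change of 0.51 came with 1 low Ad-GFP array (adjusted p = 0.585 among all probe sets, limma), and its groups overlapped too.

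Per3, the Period gene that is dispensable for the rhythm in mice, had signals below the array medians, which lay between 5.51 and 5.52. They were 4.51 and 4.93 in Ad-atrogin-1, against 4.44 and 4.56 in Ad-GFP cardiomyocytes (log2 fold change 0.22, 95% interval -0.20 to 0.64). The groups overlapped, and the change was 0.011 without Ad-atrogin-1 replicate 2 and 0.43 without Ad-atrogin-1 replicate 1. The other Per3 probe set read 3.83 to 3.98 on the 4 arrays, at the lower quartile of all probe sets (3.88 to 3.94), where a small change could not be seen.

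Cry1, the Cryptochrome that holds CLOCK and BMAL1 in check, had nearly equal group means. Its log2 signals were 7.27 and 7.24 in Ad-atrogin-1, against 7.21 and 7.34 in Ad-GFP cardiomyocytes. The Ad-atrogin-1 values lay between the Ad-GFP values, and the log2 fold change was -0.02 (95% interval -0.32 to 0.27).

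The activators of the loop did not pass either. Clock, at its brightest probe set, had log2 signals of 8.13 and 8.17 in Ad-atrogin-1, against 8.25 and 8.52 in Ad-GFP cardiomyocytes. The groups did not overlap, and the log2 fold change was -0.24 (standard error 0.14, 95% interval -0.58 to 0.10, adjusted p = 0.529, limma). It was -0.11 without Ad-GFP replicate 2 and -0.37 without Ad-GFP replicate 1. The other 3 Clock probe sets had log2 fold changes of -0.16, 0.08 and 0.18 with overlapping groups, so the 4 probe sets differed in sign. Averaged over them the Clock change was -0.04.

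Bmal1, the partner of CLOCK and the one gene whose loss alone stops the clock in mice, had log2 signals of 7.23 and 7.71 in Ad-atrogin-1, against 7.21 and 7.61 in Ad-GFP cardiomyocytes. The arrays within each group differed far more than the groups did. The log2 fold change was 0.06 with the widest interval of the loop genes apart from Dbp (-0.48 to 0.60).

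The receptors that repress Bmal1 did not pass the test. Nr1d1 had log2 signals of 6.15 and 5.91 in Ad-atrogin-1, against 6.26 and 6.11 in Ad-GFP cardiomyocytes, and the groups overlapped (log2 fold change -0.16, 95% interval -0.51 to 0.19). It was -0.042 without Ad-atrogin-1 replicate 2 and -0.28 without Ad-atrogin-1 replicate 1. Nr1d2 had log2 signals of 7.77 and 7.69 in Ad-atrogin-1, against 7.72 and 7.74 in Ad-GFP cardiomyocytes, and the group means were nearly equal (0.0021, 95% interval -0.28 to 0.29). The other 2 Nr1d2 probe sets had log2 fold changes of 0.14 and -0.05.

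Dbp, the output gene, had the widest interval of the probe sets that stand for the 10 genes. Its log2 signals were 6.06 and 5.30 in Ad-atrogin-1, against 4.97 and 5.28 in Ad-GFP cardiomyocytes. Ad-atrogin-1 replicate 1 stood above the other 3 arrays, and replicate 2 was at nearly the same signal as Ad-GFP replicate 2. The Dbp log2 fold change was 0.56 (standard error 0.27, 95% interval -0.10 to 1.23, adjusted p = 0.453, limma), so a change of more than 2-fold lay within the interval. Without Ad-atrogin-1 replicate 1 it was 0.18, and without Ad-atrogin-1 replicate 2 it was 0.94. On the array with the high Dbp signal, markers of other cells also differed from those on its replicate. The mean log2 signal of 7 macrophage and leukocyte markers was 5.64 on Ad-atrogin-1 replicate 1 and 4.64 on replicate 2, against 5.02 and 5.29 on the Ad-GFP arrays. That of 9 cardiomyocyte markers was 12.18 and 11.81 in Ad-atrogin-1, against 11.68 and 11.89 in Ad-GFP. For 8 fibroblast markers it was 10.02 and 9.70 in Ad-atrogin-1, against 9.53 and 9.98 in Ad-GFP. The 5 endothelial markers went the other way. Their mean was 5.56 on Ad-atrogin-1 replicate 1 and 6.20 on replicate 2, against 5.59 and 6.08 on the Ad-GFP arrays. All 7 macrophage and leukocyte markers read higher on Ad-atrogin-1 replicate 1 than on replicate 2, and 3 of them by more than 1 log2 unit. Adgre1 read 6.19 and 3.67 in Ad-atrogin-1, against 4.09 and 5.04 in Ad-GFP. Cd14 read 7.40 and 5.58 in Ad-atrogin-1, against 6.35 and 6.77 in Ad-GFP, and lay above the array medians on all 4 arrays. Cd68 read 6.62 and 5.08 in Ad-atrogin-1, against 6.03 and 6.15 in Ad-GFP. The other 4 (Ptprc, Csf1r, Itgam and Aif1) were below the array medians on all 4 arrays. The part of these markers in the Dbp values was not tested.

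**Figure D2:**
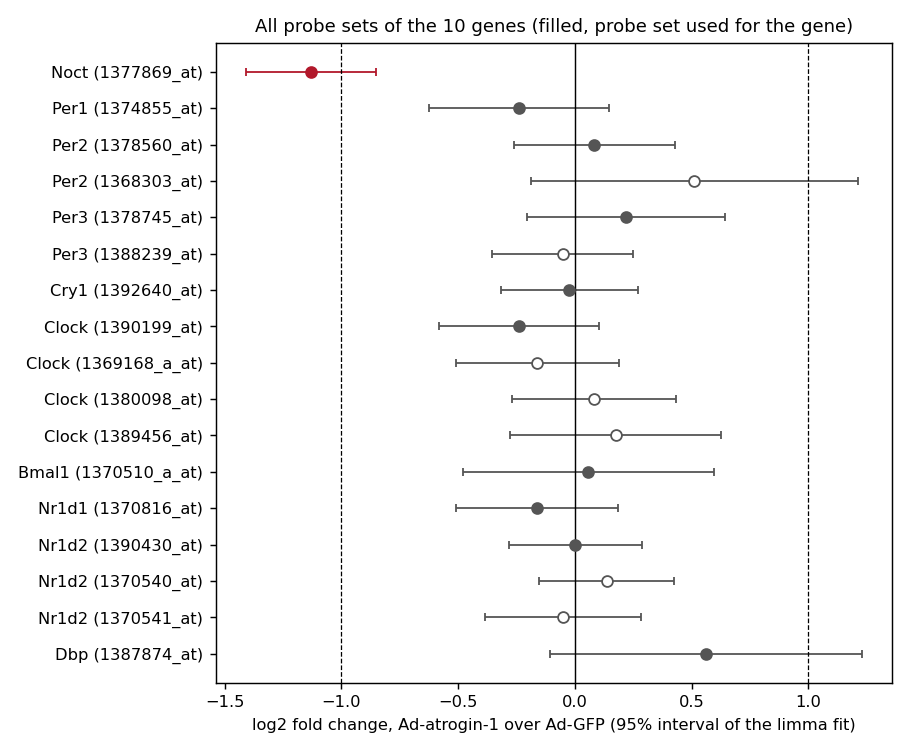
Log2 fold change (horizontal axis, positive where Ad-atrogin-1 was higher than Ad-GFP) of each of the 17 probe sets, with bars for the 95% interval of the limma fit; filled points are the probe sets that stand for a gene, and dashed lines mark 2-fold. Noct (red) lies at -1.13 with an interval that excludes 0, and the intervals of the other 16 probe sets include 0.

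Over the 10 genes, the groups were separate for 4, which were Noct, Per1 and Clock (lower) and Dbp (higher). This share is near that of all genes tested, of which 43.0% had groups that did not overlap. One of the 10 genes, Noct, had an unadjusted p under 0.05, against 13.4% of all genes.

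The 5 genes whose values over the 4 arrays were most like those of Noct were Grem1, Itga3, Cgn, Mapt and Mid1ip1. Likeness was the Euclidean distance of log2 signals after each gene was centred on its own mean, which over 4 arrays mostly picks genes with the same difference between the groups. Grem1, a secreted antagonist of bone morphogenetic proteins, was nearest at a distance of 0.0797. Its log2 signals were 5.02 and 4.99 in Ad-atrogin-1, against 6.21 and 6.19 in Ad-GFP cardiomyocytes. The integrin gene Itga3 (distance 0.128) and the cingulin gene Cgn of tight junctions (0.191) also fell, with log2 fold changes of -1.23 and -1.30. The tau gene Mapt (distance 0.205) and Mid1ip1, a regulator of fatty acid synthesis (0.225), had log2 fold changes of -1.04 each with adjusted p of 0.0566 and 0.0570 (limma), and did not pass. None of the 5 belongs to the clock lists.

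**Figure D3:**
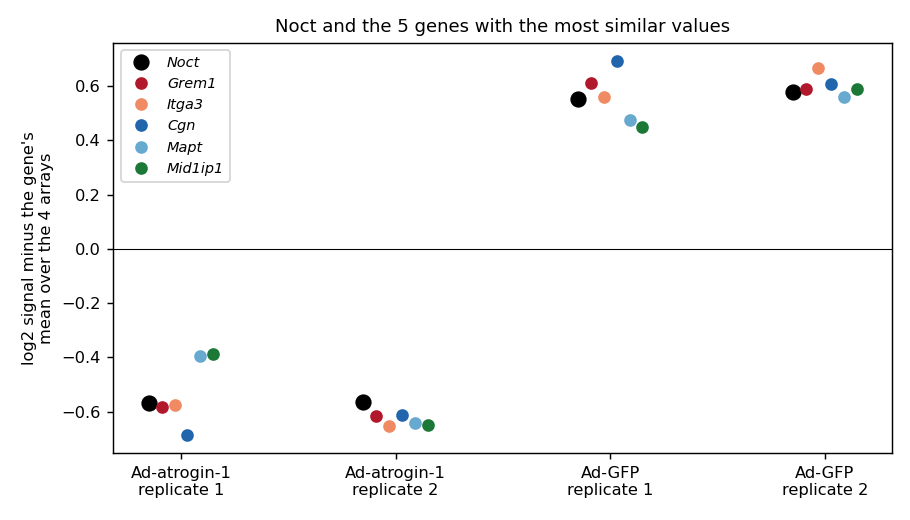
Log2 signal minus the gene's own mean over the 4 arrays (vertical axis) for Noct (black) and the 5 genes nearest to it, on each Ad-atrogin-1 and Ad-GFP array. All 6 genes lie below 0 on both Ad-atrogin-1 arrays and above 0 on both Ad-GFP arrays, and Grem1 lies closest to Noct.

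Beyond the 10 genes, 5 lists of other genes around the clock and around nocturnin were followed. Of the 55 measured genes of these lists, none rose or fell. In limma 9 of them had an unadjusted p under 0.05, beside 13.4% of all genes tested, and the smallest adjusted p was 0.0822. The groups did not overlap for 21 of the 55 genes, 6 higher and 15 lower, against 20.7% of all genes higher and 22.3% lower. The median log2 fold change was -0.07 over the 55 genes and -0.0028 over all genes tested.

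Among 7 other genes of the core loops the median log2 fold change was -0.10. It was -0.44 without Ad-atrogin-1 replicate 1 and -0.50 among the genes in the upper 60% of signals. Rora, a nuclear receptor that activates Bmal1 against the REV-ERBs, had log2 signals of 6.88 and 6.84 in Ad-atrogin-1, against 7.53 and 7.39 in Ad-GFP cardiomyocytes. The groups were apart, but Rora did not pass, at a log2 fold change of -0.60 (limma, adjusted p = 0.124), and the other Rora probe set had -0.23. Bhlhe40, a repressor that competes for E-boxes, read 7.65 and 7.67 in Ad-atrogin-1, against 8.10 and 8.22 in Ad-GFP (log2 fold change -0.50, adjusted p = 0.181, limma). The second Cryptochrome gene Cry2 had 0.01, with overlapping groups.

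The 12 measured genes for enzymes and partners that modify clock proteins had a median of -0.07, which was 0.0099 without Ad-GFP replicate 2 and -0.16 without Ad-GFP replicate 1. The groups were apart for 5 of the 12, all lower, against 22.3% of all genes lower and 43.0% in either direction. The share of lower genes was thus above that of all genes, and the difference was not tested. Gsk3b, a kinase with several clock proteins among its substrates, had log2 signals of 8.73 and 8.78 in Ad-atrogin-1, against 9.68 and 9.44 in Ad-GFP cardiomyocytes. At -0.81 (standard error 0.13, adjusted p = 0.0822, limma) its log2 fold change was the largest decrease of the 55 genes and was under 2-fold. Timeless and Btrc, named after their values were seen, had -0.73 and -0.56. TIMELESS acts mainly at replication forks in mammals, and the ubiquitin ligase subunit encoded by Btrc marks Period proteins for degradation. Their adjusted p were 0.162 and 0.172 (limma), and the other Btrc probe sets had -0.29 and -0.14. The casein kinase gene Csnk1a1 had -0.14, but its other probe sets lay between -0.05 and 0.07. At the one with 0.07 the groups were apart, with Ad-atrogin-1 higher. The phosphatase gene Ppp1cb had -0.29.

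The 12 clock output genes had a median of -0.08, whose sign turned with the arrays used. It was 0.0031 without Ad-atrogin-1 replicate 2, 0.045 without Ad-GFP replicate 2 and -0.16 without Ad-GFP replicate 1. Wee1, a kinase that delays mitosis and is driven through E-boxes in mouse liver, had log2 signals of 8.30 and 8.18 in Ad-atrogin-1, against 8.86 and 8.76 in Ad-GFP cardiomyocytes. The log2 fold change was -0.57 (standard error 0.12, adjusted p = 0.144, limma), and the other Wee1 probe set had -0.41. Nfil3, which represses the D-box that Dbp activates, had 0.26 with overlapping groups, and Alas1, the first enzyme of heme synthesis, 0.14. The relatives of Dbp, Tef and Hlf, named after their values were seen, had -0.23 and -0.08 and did not pass.

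Genes that carry signals into the clock had a median of -0.14 over 12 measured genes. It was -0.074 without Ad-atrogin-1 replicate 1, -0.21 without Ad-atrogin-1 replicate 2 and -0.08 with probe set means. The CREB coactivator gene Crtc2 averaged 6.75 ± 0.013 on the log2 scale in Ad-atrogin-1 and 7.09 ± 0.12 in Ad-GFP cardiomyocytes (SD, n = 2 each, groups apart, log2 fold change -0.34, adjusted p = 0.332, limma). The glucocorticoid receptor gene Nr3c1 had -0.13 and its target Sgk1 -0.38, with adjusted p of 0.761 and 0.421 (limma). The other Nr3c1 probe set had 0.03, and the groups overlapped at both.

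The deadenylases and their cofactors, the enzyme class in which nocturnin was first placed, had a median of 0.11 over 12 measured genes. The median was 0.047 without Ad-atrogin-1 replicate 2. The groups were apart for 5 of the 12, all higher in Ad-atrogin-1, against 20.7% of all genes higher and 43.0% in either direction. This share of higher genes was above that of all genes, and the difference was not tested. Cnot6, which encodes a catalytic subunit of the CCR4-NOT complex from the same enzyme family as nocturnin, had log2 signals of 8.02 and 8.25 in Ad-atrogin-1, against 7.70 and 7.71 in Ad-GFP cardiomyocytes. The Cnot6 log2 fold change was 0.43 (standard error 0.13, adjusted p = 0.257, limma), and its other probe sets had 0.39 and 0.23. The scaffold genes Cnot1 and Cnot2 had -0.06 and -0.10, with overlapping groups.

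**Figure D4:**
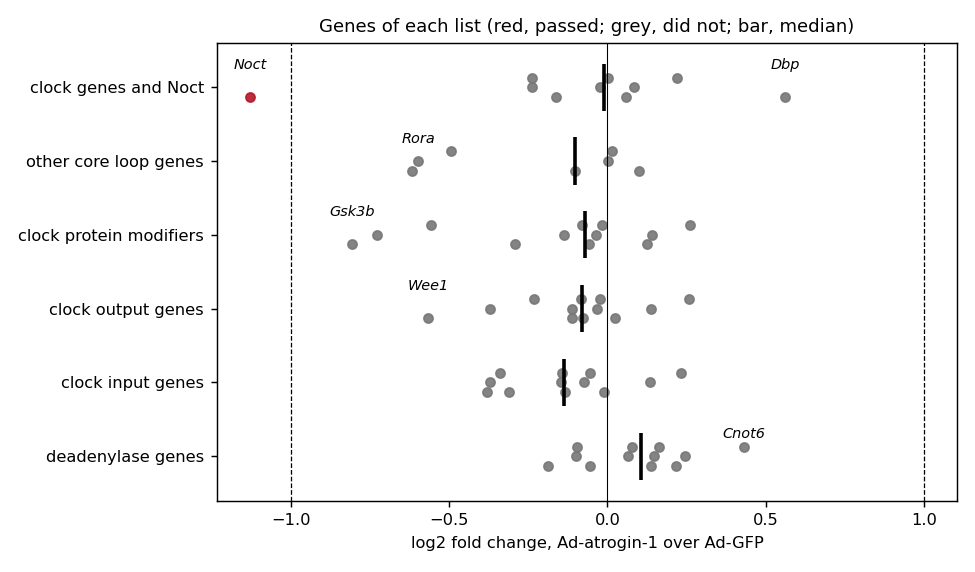
Log2 fold change (horizontal axis, positive where Ad-atrogin-1 was higher than Ad-GFP) of the measured genes of the 10 clock genes with Noct and of the 5 other lists, with black bars for list medians and dashed lines at 2-fold. Noct is the one gene beyond the 2-fold line, and the list medians lie between -0.14 and 0.11.

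The arrays as a whole matched their labels. Fbxo32, the gene of atrogin-1, had log2 signals of 13.55 and 13.47 in Ad-atrogin-1, against 5.24 and 5.04 in Ad-GFP cardiomyocytes; RNA from the virus and from the cells' own gene counts alike in this signal. The cardiomyocyte marker Tnnt2 read 12.81 to 13.05 on all arrays. Myh6, another such marker, was uneven within each group, at 11.84 and 10.89 in Ad-atrogin-1, against 10.01 and 11.09 in Ad-GFP. None of the 9 cardiomyocyte markers measured passed the test (median log2 fold change 0.33, range -0.22 to 0.82). Of 39 measured markers of 7 other cell types none passed (median 0.02, range -0.83 to 3.65). The highest was the keratin gene Krt19 (adjusted p = 0.107, limma). The smallest adjusted p was 0.102 (limma), that of the smooth muscle and pericyte marker Rgs5. The mean log2 signal of the 39 markers was 6.64 and 6.51 in Ad-atrogin-1, against 6.32 and 6.60 in Ad-GFP. The fibroblast markers among them read 10.02 and 9.70 in Ad-atrogin-1, against 9.53 and 9.98 in Ad-GFP on average. The Pearson correlation over all probe sets was at least 0.992 within groups and 0.987 to 0.988 between them.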

How the data were processed

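RNA from 2 Ad-atrogin-1 and 2 Ad-GFP cultures was hybridized to Affymetrix Rat Genome arrays, 1 array per sample. For each probe set the authors deposited a log2 signal, made from the scanner files by robust multi-array average (RMA), which subtracts background, equalizes the distributions of the arrays and summarizes each probe set. These signals were not normalized again. Control probe sets (57) were left out and 31042 were fitted with no filter. Genes came from GEO's platform annotation, with symbols updated through gene identifiers: 20826 probe sets had 1 gene, 436 several and 9780 none.

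The comparison of Ad-atrogin-1 with Ad-GFP used lmFit and eBayes of limma 3.58.1 (R 4.3.3, two-sided tests) and Benjamini-Hochberg adjustment over 14217 genes, each represented by its probe set with the highest mean signal, or over all probe sets. Intervals are unadjusted 95% intervals of the moderated fit (2 residual and 3.65 prior degrees of freedom). The labels call the arrays biological replicates. The study's methods name more experiments for the RNA than each group has arrays, and the small number of arrays limits the precision. Brightness served to choose a gene's probe set and the listed genes to name, and no result compares levels between genes.

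The members and lists were chosen with earlier results of these data known. All members are named with their values. From each list, called genes are named, and otherwise the 2 brightest and the one with the lowest p. Timeless, Btrc, Tef and Hlf were added to these after their values were seen. The lists had 61 genes, of which 55 were measured, the others having no probe set paired with 1 gene. The script was tested on simulated data. Alternatives were median centring, quantile normalization, a signal filter, a trended or robust prior, the equal-variance test called here the methods' t-test, other thresholds, probe set means, a replicate block and each array left out. Promoter sequences are from RefSeq (GRCr8).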

Additional observations from a re-analysis of the deposited data

How the results depend on the processing

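Noct kept its direction under all 14 alternatives (log2 fold change -1.15 to -1.12) and was called in 8 of them, at an adjusted p of 0.0228 to 0.0321. It was not called with the methods' t-test (-1.13, adjusted p = 0.291, unadjusted p = 0.00011), with the replicate block (-1.13, adjusted p = 0.144) or with any 1 array left out (-1.14 to -1.12). Only median centring, quantile normalization and a left-out array could alter its fold change, which the other alternatives leave as in the main fit. The looser thresholds reuse the main fit, so the calls of Noct under them were fixed in advance. Genes called numbered 73, but 165 with unadjusted p, 0 with the methods' t-test (1339 had an unadjusted p under 0.05), 1 with the block, and 0 to 1 with an array left out. Members called and their probe sets called numbered 1 each, and 0 in those settings where Noct was lost. Same-numbered arrays deviated together with a correlation of 0.0432 over all probe sets, which cannot show whether they shared a culture. The labels do not state a pairing, and the main fit used none. No gene of the 5 other lists was called under any alternative. Of 70 values of the list medians, 54 moved by less than the list's net shift between replicates. This shift was the median signed difference between the arrays of a group, scaled to an SD, in the group where it was larger. Opposite differences cancel in it. A changed prior, test or threshold, or the block, leaves fold changes as in the main fit, so the medians could not move there. For the other 9 members 118 of 125 values kept their direction and none was called. A changed prior, test or threshold, or the block, could not turn a sign, so those values were fixed in advance. Nr1d2 turned to -0.0116 after quantile normalization. With an array left out, the sign turned within -0.042 to 0.046 for Nr1d2, -0.0272 to 0.19 for Per2, -0.18 to 0.30 for Bmal1 and -0.0865 to 0.0403 for Cry1. Per3 had no value under the signal filter, since its probe sets were below it. The cause of these differences was not tested beyond the fewer arrays of some fits. With 2 arrays a group, and Per3 and Dbp near or below the array medians, small changes could not be seen.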

Other observations

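Bmal1 and Nr1d1 differed between the arrays of a group in opposite directions, in both groups alike. Bmal1 was higher on replicate 2 than on replicate 1 by 0.48 in Ad-atrogin-1 and by 0.39 in Ad-GFP cardiomyocytes on the log2 scale, while the groups differed by 0.06. For Nr1d1 the same differences were -0.24 and -0.15. In all, 6 of the 10 genes had their replicates in the same order in both groups, against 52.1% of all genes tested, so the members as a set were near the background. The pattern was noticed after the values were seen and was not tested, and the labels do not say that a replicate number marks a shared culture or day.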
